A study of Mus musculus with 40 samples.

Results

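The NF-κB subunits and their feedback inhibitors were followed in CD11b+ cells of naïve mouse brain and of mouse and human gliomas as 10 genes, out of 54513 rows (21849 of them protein-coding) in each of 3 expression tables. They were chosen by name: the subunits Nfkb1, Nfkb2, Rel, Rela and Relb, the inhibitors of the IκB family Nfkbia, Nfkbie and Nfkbiz, the ubiquitin-editing enzyme Tnfaip3, and Bcl3, an IκB-like protein of the nucleus. Each name matched 1 row per table, and all 10 passed the filter on low values (a mean of at least 1 RPKM) in all 13 comparisons.

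NF-κB transcription factors are dimers of the Rel family that are held in the cytoplasm by IκB proteins. In the canonical pathway, signals from receptors for TNF, IL-1 and microbial products lead to degradation of IκBα, and dimers of RelA or c-Rel with p50, the product of Nfkb1, enter the nucleus. In the non-canonical pathway, receptors such as CD40 and the lymphotoxin β receptor lead to processing of the Nfkb2 product p100 to p52, which pairs with RelB. NF-κB drives transcription of several of its own subunits and inhibitors, among them Nfkbia, Nfkbie, Tnfaip3, Nfkb1, Nfkb2, Relb and Bcl3, so the transcripts are often used as readouts of the pathway in microglia and macrophages.

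CD11b+ cells were sorted by FACS from brain hemispheres, tumor-bearing or naïve, of male mice aged 10 to 12 weeks, and RNA was sequenced. At 21 days post-implantation (DPI), 3 samples per group, each of 2 pooled animals, came from C57BL/6 mice: naïve, and implanted with GL261 tdTomato+luc+ glioma cells (a murine line) with intratumoral osmotic pumps that held water (vehicle), the integrin-blocking peptide 7aaRGD, or its control 7aaRAE, which lacks the motif that binds integrins, both at 2 mg/ml. At 28 DPI, each sample was 1 animal with a GL261 glioma, with 4 vehicle, 4 7aaRGD, 3 anti-PD-1 and 3 combination (7aaRGD plus anti-PD-1) samples; the antibody was injected intraperitoneally at 10 mg/kg and control groups received IgG. The labels call these mice nude while the methods describe C57BL/6 hosts, and nude mice lack mature T cells. The paper calls the hosts of the anti-PD-1 experiment immunocompetent and reports CD8+ T cells in their tumors. The third experiment used U87-MG RFP+ gliomas (a human line) in athymic nude mice at 21 DPI, with 3 samples each of vehicle, 7aaRGD and 7aaRAE, numbered here only to name them.

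The read depth is unknown, and 9327 to 9820 genes had 1 RPKM or more in a sample. Itgam, which encodes CD11b, the marker of the sort, was present in every group, as were Ptprc, Aif1, Csf1r and Tyrobp. These 5 genes summed to 2131 to 4589 RPKM, and the 6 T cell markers summed to at most 9.48 RPKM in any sample. RPKM (reads scaled to transcript length and to library size) compares levels between genes, but the tables were normalized separately, so levels of different tables are set side by side without a test. Fold changes are differences of mean log2(RPKM + 1), tested with limma over all protein-coding genes past the filter, and a change is called at an adjusted p-value under 0.05.

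In the mouse genome build mm10 (the GRCm38 assembly), Nfkb1 lay at chr3:135584655-135691547, Nfkb2 lay at chr19:46304320-46312385, Rel lay at chr11:23736847-23770970, Rela lay at chr19:5637483-5648130, Relb lay at chr7:19606217-19629438, Nfkbia lay at chr12:55489410-55492647, Nfkbie lay at chr17:45555703-45563169, Nfkbiz lay at chr16:55811375-55838899, Tnfaip3 lay at chr10:19000910-19015657 and Bcl3 lay at chr7:19808462-19822770. All 10 are protein-coding genes.

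Promoters were examined for the NF-κB consensus (κB) motif because several of the genes are known targets of the pathway. RefSeq windows from 250 bases before to 50 bases after a transcript's start (build GRCm38.p6) were found for 7 of the 10 genes; none was found for Nfkb1, Relb and Nfkbiz. The 10-letter motif was searched on both strands, with overlapping matches counted separately. It was found in at least 1 window of 6 of the 7 genes (all but Rela), while 9.55% of all 27025 genes with a window held it in at least 1 (2581 genes). The windows below show 5 genes that behaved differently in the comparisons: Bcl3, with the largest difference from naïve cells, Nfkb2 and Nfkbie, higher after anti-PD-1, and Nfkbia and Rel, which did not pass the threshold after anti-PD-1. They run 5′ to 3′ on the gene's own strand, and capitals mark the κB matches.
Nfkb2, chr19:46304487-46304786, plus strand: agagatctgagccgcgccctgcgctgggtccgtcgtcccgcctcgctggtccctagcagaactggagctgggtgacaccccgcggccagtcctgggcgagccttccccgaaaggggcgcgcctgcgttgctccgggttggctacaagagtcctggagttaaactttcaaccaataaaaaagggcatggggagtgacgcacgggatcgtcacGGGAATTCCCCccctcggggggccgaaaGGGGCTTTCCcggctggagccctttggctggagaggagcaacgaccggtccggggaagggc
Nfkbie, chr17:45555450-45555749, plus strand: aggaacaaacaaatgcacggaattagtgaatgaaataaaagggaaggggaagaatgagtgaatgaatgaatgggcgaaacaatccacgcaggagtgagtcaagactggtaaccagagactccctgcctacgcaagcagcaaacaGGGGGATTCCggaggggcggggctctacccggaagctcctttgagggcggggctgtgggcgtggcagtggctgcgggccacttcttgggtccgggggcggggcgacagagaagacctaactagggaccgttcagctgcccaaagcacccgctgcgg
Nfkbia, chr12:55492598-55492897, minus strand: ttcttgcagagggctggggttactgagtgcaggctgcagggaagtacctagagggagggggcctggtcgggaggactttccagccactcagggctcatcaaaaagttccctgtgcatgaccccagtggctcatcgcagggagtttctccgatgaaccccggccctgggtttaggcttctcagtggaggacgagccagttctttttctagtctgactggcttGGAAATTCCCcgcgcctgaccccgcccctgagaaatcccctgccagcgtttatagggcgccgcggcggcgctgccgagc
Rel, chr11:23770920-23771219, minus strand: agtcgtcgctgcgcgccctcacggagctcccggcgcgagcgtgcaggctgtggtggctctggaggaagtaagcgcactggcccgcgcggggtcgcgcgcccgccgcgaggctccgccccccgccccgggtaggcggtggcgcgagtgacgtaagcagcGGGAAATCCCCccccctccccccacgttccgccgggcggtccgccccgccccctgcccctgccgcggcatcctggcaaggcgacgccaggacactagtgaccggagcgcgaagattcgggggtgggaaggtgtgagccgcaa
Bcl3, chr7:19822706-19823005, minus strand: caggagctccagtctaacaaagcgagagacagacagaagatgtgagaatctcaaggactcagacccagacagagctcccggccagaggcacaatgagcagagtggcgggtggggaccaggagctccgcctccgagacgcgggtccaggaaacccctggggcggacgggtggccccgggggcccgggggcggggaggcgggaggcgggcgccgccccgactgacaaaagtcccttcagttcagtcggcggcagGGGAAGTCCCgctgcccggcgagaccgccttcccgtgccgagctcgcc

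Counted from the start site, the Nfkb2 window shown held overlapping matches from -39 to -29 and another from -11 to -2. The Nfkbie match lay from -106 to -97, that of Nfkbia from -29 to -20, those of Rel from -92 to -82 and that of Bcl3 from 2 to 11. Other windows of Nfkb2 and a window of Tnfaip3, not shown, also held matches. A match is a sequence description and does not show binding. Matches were present both in genes that rose after anti-PD-1 and in genes that did not pass the threshold.

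Nfkbia, which encodes IκBα, was the most abundant of the 10 transcripts in each of the 11 groups, from 78.6 ± 5.02 (SD, n = 3) RPKM in naïve cells to 192 ± 20.9 (SD, n = 3) with 7aaRAE at 21 DPI. Rela, the transactivating subunit of the canonical dimer, varied least among the 10 tumor-bearing groups as a ratio of the highest to the lowest mean, with group means from 38.2 to 49 RPKM, below its naïve mean of 63.4. Rel (c-Rel) was the lowest or next to the lowest of the 10 in every tumor-bearing group, at group means from 8.64 to 14.5 RPKM. As a ratio of the highest to the lowest group mean, Bcl3 had the widest range, from 1.79 RPKM in naïve cells to 53.9 with 7aaRGD at 21 DPI.

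The first comparison asked how CD11b+ cells of GL261-bearing hemispheres differed from those of naïve brain at 21 DPI. Of the 10 genes, 7 were higher in vehicle-treated gliomas (Bcl3, Nfkb2, Relb, Tnfaip3, Nfkbia, Nfkbie and Rel) and 1 was lower (Rela). Among all 9728 genes tested, 82.9% passed the threshold, 34.6% as higher and 48.2% as lower, so that a call in either direction was common, while 7 of 10 higher stood against a background of 34.6%. The median log2 fold change was 1.12 over the 10 genes and -0.14 over all genes tested, and changes are to be read relative to that shift.

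Subunits of the non-canonical pathway showed the largest rise among the subunits. Nfkb2 was at 10.5, 12 and 11.8 RPKM in the naïve samples and at 42.6, 49.2 and 47.9 in the vehicle samples (log2 fold change 1.94, standard error 0.08, adjusted p = 1.43e-07). Its partner Relb was at 8.41, 7.95 and 7.65 RPKM in naïve and 25.1, 30.6 and 30.3 in vehicle samples (log2 fold change 1.72, standard error 0.08, adjusted p = 3.89e-07). In both genes the lowest vehicle sample lay above the highest naïve sample, and the mean was 4.08 times the naïve mean for Nfkb2 and 3.58 times for Relb.

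The canonical subunits differed less. Rel rose from 10.7 ± 0.612 (SD, n = 3) to 13.3 ± 1.09 (SD, n = 3) RPKM (log2 fold change 0.29, standard error 0.07, adjusted p = 0.0062), with samples that did not overlap. Rela fell from 66.7, 62.9 and 60.5 RPKM in naïve to 44.6, 45.7 and 47.6 in vehicle samples (log2 fold change -0.45, standard error 0.06, adjusted p = 0.000116). Nfkb1, which encodes p105 and p50, was at 25.5, 26.2 and 26.5 RPKM in naïve and 27, 27.6 and 25.7 in vehicle samples, and the groups overlapped (log2 fold change 0.04, standard error 0.05, adjusted p = 0.515).

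Among the inhibitors and IκB-like proteins, the nuclear IκB-like Bcl3 stood out. It was at 2.11, 1.86 and 1.40 RPKM in the naïve samples and at 46.3, 50.5 and 54.4 in the vehicle samples (log2 fold change 4.21, standard error 0.10, adjusted p = 1.68e-08). The vehicle mean was 28.1 times the naïve mean, and Bcl3 moved from the lowest of the 10 genes in naïve cells to the second highest in glioma. Tnfaip3 (A20), which removes activating ubiquitin chains upstream of IKK, rose from 15.1 ± 0.785 (SD, n = 3) to 43 ± 8.47 (SD, n = 3) RPKM (log2 fold change 1.44, standard error 0.12, adjusted p = 1.05e-05). Nfkbia rose from 78.6 ± 5.02 (SD, n = 3) to 182 ± 10.9 (SD, n = 3) RPKM (log2 fold change 1.20, standard error 0.07, adjusted p = 1.11e-06). Nfkbie (IκBε) rose from 19.2 ± 0.807 (SD, n = 3) to 41.1 ± 5.14 (SD, n = 3) RPKM (log2 fold change 1.05, standard error 0.09, adjusted p = 1.18e-05). In 8 of the 10 genes the samples did not overlap between the groups, as in 85.4% of all genes tested, the exceptions being Nfkb1 and Nfkbiz. Nfkbiz (IκBζ, a nuclear coactivator for a subset of NF-κB targets) overlapped between naïve (9.15, 12.4 and 10.2 RPKM) and vehicle (11.2, 12.6 and 11.6; log2 fold change 0.15, standard error 0.10, adjusted p = 0.192).

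**Figure D1:**
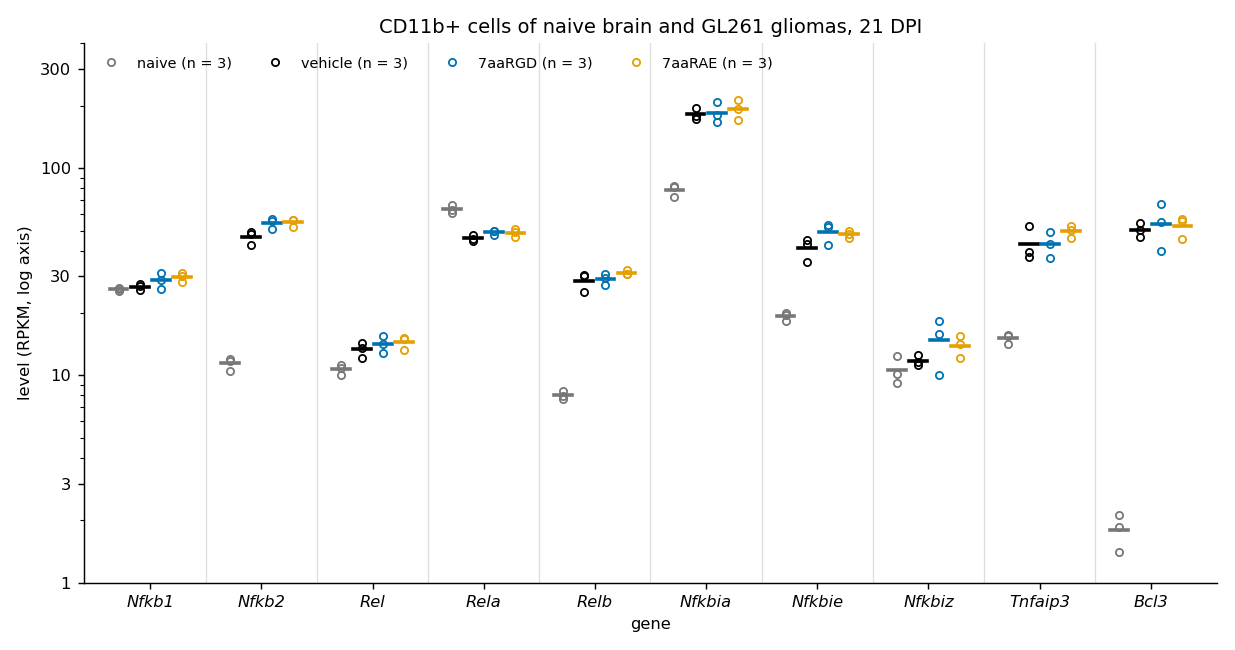
Level of each gene in RPKM (log axis) in CD11b+ cells at 21 DPI; each circle is a sample of 2 pooled animals, and bars are means of 3 samples for naïve, vehicle, 7aaRGD and 7aaRAE. Naïve samples of Bcl3 lie between 1.40 and 2.11 RPKM, far under the 3 glioma groups, while those of Rela lie above all of them.

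Other genes of the pathway moved alongside. Over all genes tested, 34.6% were higher and 48.2% lower. Of 27 tested target genes, 25 were higher in glioma and 1, Il1a, was lower (-0.28), led by Ccl5 (log2 fold change 7.41, from 1.60 to 457 RPKM), Il1b (4.68), Ier3 (4.50), Bcl2a1d (4.22) and Ptgs2 (3.88). Of 14 other inhibitors, 12 were higher and none was lower, with the largest differences in Traf1 (2.71), Zc3h12a (2.05), Zfp36 (1.84), Irak3 (1.78) and Birc3 (1.75). Of 23 upstream receptors, adaptors and kinases, 14 were higher and 5 lower, with Cd40 (4.97, from 0.29 to 39.8 RPKM), Ikbke (3.05), Myd88 (1.35) and Tlr2 (1.35) up and Tab2 (-0.86), Tlr4 (-0.61), Tab1 (-0.42), Ikbkg (-0.40) and Map3k7 (-0.34) down. Of 17 immediate early and stress genes, 11 were higher and 3 lower, with Egr2 (2.51), Nr4a1 (2.12), Dusp1 (2.07), Fos (2.06) and Klf4 (1.93) leading and Hspa1b (-1.80), Hspa1a (-1.19) and Jund (-0.45) lower. Il1a, Tlr4, Tab1, Ikbkg, Map3k7, Hspa1a, Hspa1b and Jund are named here to account for small counts and were chosen after their values were seen, as are the lower genes and single markers named for 28 DPI.

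Markers of cell types also differed between these groups. All 8 microglia markers were lower in glioma, with summed levels of 15638 to 16190 RPKM in naïve and 1294 to 1882 in vehicle samples, and all 8 monocyte and macrophage markers were higher, at 40.9 to 48.3 and 2182 to 2809 RPKM. Of 8 neutrophil markers 5 were lower (S100a8, S100a9, Csf3r, Mmp9 and Ngp) and 1, Mmp8, was higher. Higher too were the NK cell markers Gzma and Gzmb, the dendritic cell markers Flt3 and Ccr7, the endothelial marker Flt1 and the oligodendrocyte lineage markers Olig1 and Sox10, while Fscn1 and the B cell marker Cd79b were lower. Of Itgam, Ptprc, Aif1, Csf1r and Tyrobp, 2 were higher and 2 lower, with sums of 4358 to 4509 RPKM in naïve and 2131 to 2425 in vehicle samples. No marker was listed at 0. In bulk samples, fewer cells of a type and less RNA per cell cannot be told apart, and the part of these markers in the results above was not tested.

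**Figure D2:**
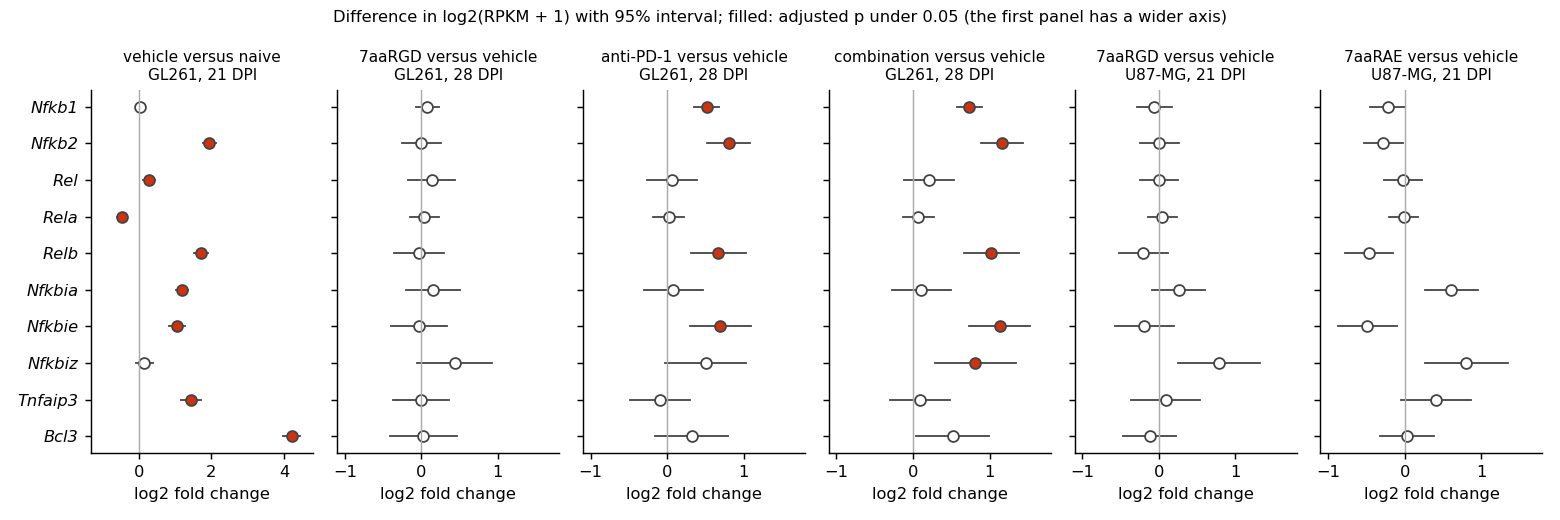
Difference in log2(RPKM + 1) for each gene (points) with its 95% confidence interval (lines) in 6 comparisons; filled points passed an adjusted p-value of 0.05. Bcl3 at 4.21 is the largest difference in the first panel, Nfkb1, Nfkb2, Relb and Nfkbie are filled in both panels with anti-PD-1, and no point is filled for 7aaRGD alone at 28 DPI or in U87-MG gliomas.

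Next, the peptides were compared with vehicle in GL261 gliomas at 21 DPI. None of the 10 genes passed the threshold with 7aaRGD (limma; 0.148% of 9441 genes passed), with 7aaRAE (0 of 9441 genes) or between the peptides (0 of 9441). At an unadjusted p under 0.05 there were 2, 1 and 0 of the 10, against backgrounds of 13.6%, 6.37% and 5.52% of genes. Both peptide differences share the error of the same 3 vehicle samples.

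Nfkb2 was nearest to the threshold. It was at 42.6, 49.2 and 47.9 RPKM with vehicle, at 56.6, 55.6 and 50.7 with 7aaRGD (log2 fold change 0.22, standard error 0.07, adjusted p = 0.27) and at 56.1, 52.3 and 56.2 with 7aaRAE (log2 fold change 0.23, standard error 0.07, adjusted p = 0.718). Neither peptide group overlapped with vehicle, and the peptides overlapped with each other (95% interval of the difference -0.18 to 0.15). Nfkbie was at 53.4, 51.9 and 42.4 RPKM with 7aaRGD and 48.3, 46.2 and 49.5 with 7aaRAE, against 35.2, 43.1 and 44.9 with vehicle (log2 fold change 0.26, standard error 0.11, adjusted p = 0.349 for 7aaRGD).

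With 7aaRAE in GL261 gliomas, 4 of the 10 genes (Nfkb1, Nfkb2, Relb and Nfkbie) had all samples above all vehicle samples, against 6.12% of all genes in that direction, and with 7aaRGD 1 of 10 (Nfkb2) against 12.5%. All 10 fold changes were over 0 with each peptide, where 57.7% and 52% of all genes were. The differences were small, with log2 fold changes up to 0.26 with 7aaRGD and up to 0.23 with 7aaRAE. Between 7aaRGD and 7aaRAE, the 95% intervals of the 10 differences lay between -0.52 and 0.45 on the log2 scale, which is from 0.695 to 1.36 as a ratio. Nfkbiz, with the highest of these bounds, was at 15.9, 18.3 and 10.1 RPKM with 7aaRGD and 12.1, 15.5 and 14.1 with 7aaRAE.

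No cell type marker passed with either peptide, but summed levels of some lists did not overlap. Microglia markers, with log2 fold changes over 0 in 8 of 8 with each peptide, summed to 1294 to 1882 RPKM with vehicle, 1945 to 2585 with 7aaRGD and 1687 to 2127 with 7aaRAE, so that 7aaRGD did not overlap with vehicle. Dendritic cell markers summed to 121 to 144 RPKM with vehicle, 165 to 194.9 with 7aaRGD and 145 to 173 with 7aaRAE. Neither peptide overlapped with vehicle, but few genes carried this sum. Naïve samples summed higher, to 439 to 466 RPKM, with 5 of the 7 markers at a mean under 1 RPKM. With vehicle 3 of the 7 were under 1 RPKM, and with each peptide 2. Between vehicle and naïve cells, Fscn1 of this list was lower in glioma, while Flt3 and Ccr7 were higher. The dendritic cell sum is not read as an amount of dendritic cells. Oligodendrocyte lineage markers summed to 13.4 to 20.6 RPKM with vehicle, 23.2 to 33.1 with 7aaRGD and 17.8 to 23 with 7aaRAE. Endothelial markers summed to 16.1 to 37.4 RPKM with vehicle, 13.1 to 16 with 7aaRGD, lower without overlap, and 15.4 to 20.9 with 7aaRAE. Monocyte and macrophage markers summed to 2182 to 2809 RPKM with vehicle, 1981 to 2191 with 7aaRGD and 1949 to 2152 with 7aaRAE. NK cell markers overlapped, at 7.53 to 23.3 RPKM with vehicle, 19.6 to 49.9 with 7aaRGD and 7.59 to 24.9 with 7aaRAE. No marker was listed at 0, and their part in the values of the 10 genes was not tested.

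No gene of the pathway lists passed in these 3 comparisons. The smallest p-values with 7aaRGD against vehicle were those of Ikbke (-0.35) and Tlr2 (0.31) among upstream genes, Traf1 (0.20) and Nfkbib (0.21) among other inhibitors, Bcl2a1d (0.39) and Clec4e (0.36) among targets, and Hspa1a (0.98) and Nr4a1 (0.37) among immediate early and stress genes (log2 fold changes). With 7aaRAE they were Tlr2 (0.37), Cd40 (0.28), Irak3 (0.22), Tollip (-0.14), Clec4e (0.41), Il1a (0.64), Hspa1a (0.70) and Nr4a1 (0.22). Between the peptides they were Ikbke (-0.26), Map3k14 (0.17), Irak3 (-0.23), N4bp1 (-0.23), Il12b (0.42), Ier3 (-0.27), Fos (-0.17) and Ier2 (0.13).

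At 28 DPI, GL261 gliomas treated with 7aaRGD, anti-PD-1 or both were compared with vehicle. With anti-PD-1, 4 of the 10 genes were higher (Nfkb1, Nfkb2, Relb and Nfkbie), and none was lower; of all 9737 genes tested, 23.1% passed the threshold, 10.8% higher and 12.2% lower. With the combination, 5 were higher (the same 4 and Nfkbiz), while 43.3% of all genes passed, 17.5% higher and 25.8% lower. The 4 genes shared by both calls did not overlap with vehicle in either treatment, against 15.4% and 20% of all genes higher without overlap. With 7aaRGD alone none of the 10 passed (limma; 0.647% of genes passed, and 0 of the 10 against 14.6% of genes had an unadjusted p under 0.05). With 7aaRGD the log2 fold changes ran from -0.03 for Relb to 0.44 for Nfkbiz (95% interval of the latter -0.05 to 0.92). The 3 treatments were compared with the same 4 vehicle samples.

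Nfkb2 showed the largest difference. It was at 18.2, 16.1, 17.8 and 16.1 RPKM with vehicle and at 14.9, 18.1, 18 and 17 with 7aaRGD, at 39.6, 29.4 and 24.1 with anti-PD-1 and at 42.6, 37.4 and 38 with the combination. All anti-PD-1 and combination samples lay above all vehicle and 7aaRGD samples. The difference from vehicle was 0.80 with anti-PD-1 (standard error 0.13, adjusted p = 0.000991) and 1.16 with the combination (standard error 0.13, adjusted p = 1.86e-05).

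Nfkb1 was at 14.4, 12.9, 14.8 and 14 RPKM with vehicle, 15, 14.9, 14 and 15.5 with 7aaRGD, 21.6, 20.8 and 19 with anti-PD-1 and 26.8, 22.4 and 23.1 with the combination. The samples of the last group lay above those of anti-PD-1, which lay above those of vehicle and 7aaRGD. Its difference from vehicle was 0.52 with anti-PD-1 (standard error 0.07, adjusted p = 0.000538) and 0.74 with the combination (adjusted p = 9.33e-06). Nfkb1 had not passed the threshold between glioma and naïve brain at 21 DPI.

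Relb was at 11.1, 11.6, 9.82 and 9.46 RPKM with vehicle, 8.25, 8.88, 13.2 and 11 with 7aaRGD, 22.9, 15.8 and 14 with anti-PD-1 and 25, 20.04 and 22 with the combination. Nfkbie was at 20.2, 15.6, 19.2 and 18.1 RPKM with vehicle, 15.8, 22.6, 16.8 and 16.6 with 7aaRGD, 42.2, 30.2 and 21.2 with anti-PD-1 and 45.5, 42.7 and 35.7 with the combination. In both genes the anti-PD-1 and combination samples lay above vehicle without overlap. With anti-PD-1 the differences were 0.67 (standard error 0.16, adjusted p = 0.0112) for Relb and 0.69 (0.19, adjusted p = 0.0171) for Nfkbie, and with the combination 1.02 (adjusted p = 0.000305) and 1.13 (adjusted p = 0.000345).

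Anti-PD-1 replicate 1 was the highest of its group in each of these 4 genes. Without it, 2 of the 10 passed (Nfkb1 and Nfkb2), with Relb at 0.47 (adjusted p = 0.0516) and Nfkbie at 0.45 (adjusted p = 0.0751). Without anti-PD-1 replicate 2, Nfkbie also missed the threshold (adjusted p = 0.0547). The 4 calls with the combination held without any 1 sample.

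Nfkbiz was at 8.84, 7.55, 13.1 and 8.36 RPKM with vehicle, 13.2, 9.21, 12.5 and 17.8 with 7aaRGD, 19, 13.5 and 9.56 with anti-PD-1 and 20.03, 12.8 and 19.3 with the combination. It rose with the combination (log2 fold change 0.82, standard error 0.25, adjusted p = 0.0161), although the highest vehicle sample, replicate 3, lay above the lowest combination sample, and the call was lost without combination replicate 1 (adjusted p = 0.0705) or 3 (adjusted p = 0.063). Bcl3 was at 27.1, 14.9, 18.8 and 20.4 RPKM with vehicle, 19.6, 22.6, 21.4 and 17.7 with 7aaRGD, 38.8, 22.8 and 17.6 with anti-PD-1 and 29.1, 30.8 and 26.7 with the combination, where the difference missed the threshold (log2 fold change 0.52, standard error 0.22, adjusted p = 0.0719). Vehicle replicate 1 overlapped with the combination, and without it Bcl3 passed at 0.66 (adjusted p = 0.0282).

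Rel, Rela, Nfkbia and Tnfaip3 did not pass in any comparison at 28 DPI. Rel was at 8.64 ± 1.18 (SD, n = 4) RPKM with vehicle, 9.66 ± 2.02 (SD, n = 4) with 7aaRGD, 9.11 ± 1.97 (SD, n = 3) with anti-PD-1 and 10.1 ± 0.479 (SD, n = 3) with the combination. Rela was at 38.2 ± 1.48 (SD, n = 4) RPKM with vehicle, 39.4 ± 3.62 (SD, n = 4) with 7aaRGD, 39 ± 6.37 (SD, n = 3) with anti-PD-1 and 40.2 ± 2.08 (SD, n = 3) with the combination. Nfkbia, a rapid target of canonical NF-κB, was at 137 ± 12.3 (SD, n = 4), 156 ± 36.5 (SD, n = 4), 147 ± 27.8 (SD, n = 3) and 149 ± 27.3 (SD, n = 3) RPKM in the same order of groups, highest with 7aaRGD, and Tnfaip3, another, at 25.6 ± 4.92 (SD, n = 4), 25.6 ± 4.54 (SD, n = 4), 23.8 ± 3.16 (SD, n = 3) and 27.6 ± 6.64 (SD, n = 3). The 95% intervals for anti-PD-1 ran from -0.31 to 0.47 for Nfkbia, from -0.49 to 0.30 for Tnfaip3, from -0.19 to 0.22 for Rela and from -0.27 to 0.39 for Rel on the log2 scale. In each of the 4 genes the groups overlapped.

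**Figure D3:**
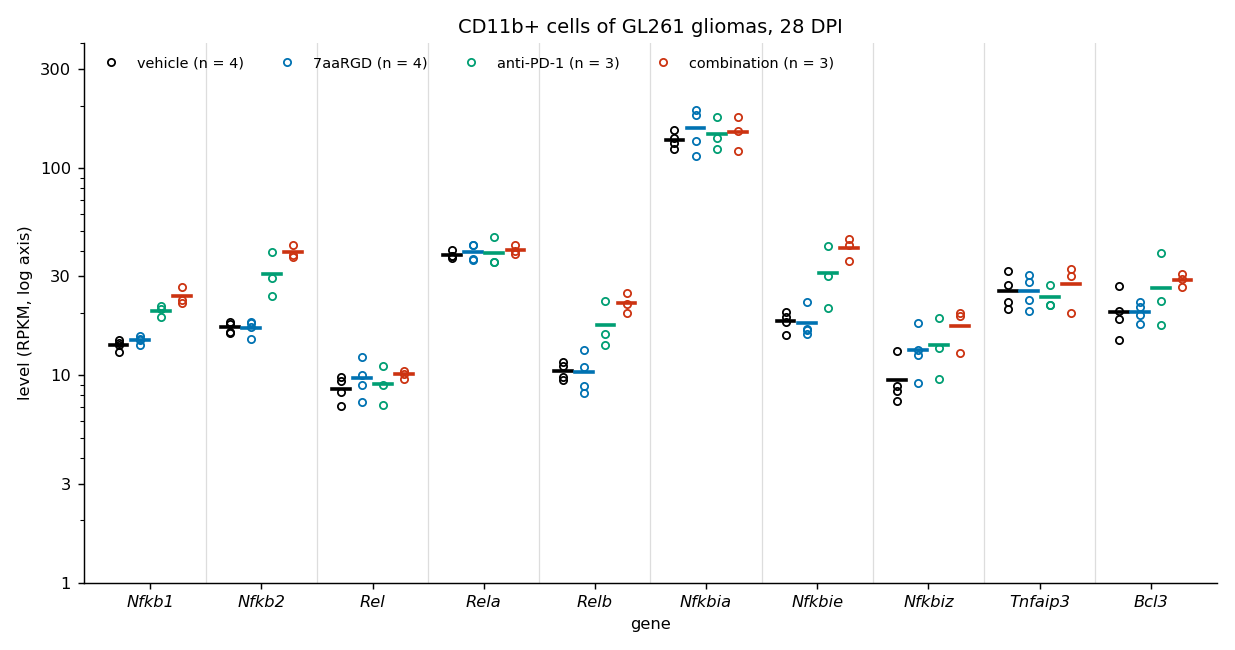
Level of each gene in RPKM (log axis) in CD11b+ cells of GL261 gliomas at 28 DPI; each circle is 1 animal and bars are group means for vehicle, 7aaRGD, anti-PD-1 and combination. Anti-PD-1 and combination samples of Nfkb1, Nfkb2, Relb and Nfkbie lie above all vehicle samples, while the 4 groups overlap for Rel, Rela, Nfkbia and Tnfaip3.

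To ask what anti-PD-1 added to the peptide, the combination was compared with 7aaRGD: 4 of the 10 genes were higher, Nfkb1 (0.66, adjusted p = 4.67e-05), Nfkb2 (1.16, adjusted p = 4.32e-05), Relb (1.06, adjusted p = 0.000414) and Nfkbie (1.16, adjusted p = 0.00047), against 13% of all genes higher and 23.5% lower, 36.6% in all. Bcl3 did not pass (log2 fold change 0.49, standard error 0.22, adjusted p = 0.0965) but was the fifth of the 10 without overlap, against 14.5% of all genes higher without overlap. To ask what the peptide added to anti-PD-1, the combination was compared with anti-PD-1, and none of the 10 passed (limma; 0.0411% of genes did). Nfkb1 (0.22, adjusted p = 0.213), Nfkb2 (0.36, adjusted p = 0.241) and Nfkbie (0.44, adjusted p = 0.317) had an unadjusted p under 0.05, 3 of 10 against 15% of all genes. Nfkb1 was the 1 gene of the 10 without overlap there, all higher in the combination, against 6.23% of all genes in that direction.

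The interaction of 7aaRGD and anti-PD-1, the difference between the combination and the sum of the single treatments, passed for none of the 10 genes and for 0 of 9737 genes (limma), with 0 of 10 and 8.15% of all genes at an unadjusted p under 0.05. The largest values were those of Nfkbie (0.47, 95% interval -0.09 to 1.04), Relb (0.39, -0.11 to 0.89) and Nfkb2 (0.36, -0.03 to 0.75). In the lists, the smallest p-values were those of Irak1 (-0.22), Map3k7 (-0.20), Zfp36 (0.38), Birc3 (0.27), Ccl2 (-1.25), Ccrl2 (1.18), Fosb (1.21) and Fos (0.71), and none passed.

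Upstream of the 10 genes, 3 of 23 listed genes were higher with anti-PD-1, Cd40 (0.82), a receptor of the non-canonical pathway, Ikbke (0.69) and Traf3 (0.54), which restrains that pathway, and 2 were lower, the lymphotoxin β receptor Ltbr (-0.29) and Irak1 (-0.17). These upstream counts were near the shares over all genes tested, 10.8% higher and 12.2% lower. With the combination, 7 were higher and 3 lower, against 17.5% and 25.8% of all genes. The largest were Tlr2 (0.93), Cd40 (0.93), Traf3 (0.71), Tlr4 (0.69) and, lower, Tab1 (-0.75), Ltbr (-0.44) and Irak1 (-0.42). Of 13 other inhibitors, 5 were higher and 1 lower with anti-PD-1, namely Traf1 (1.05), Tnip1 (0.63), Nfkbid (0.61), Irak3 (0.55) and N4bp1 (0.28), with the deubiquitinase Otulin at -0.47. With the combination 8 were higher and 2 lower, with Traf1 at 1.49, Tnip1 at 0.90, Nfkbid at 0.89, Irak3 at 0.83, Otulin at -0.61 and Tollip at -0.23.

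Of 26 target genes, 8 were higher and 3 lower with anti-PD-1, against 10.8% and 12.2% of all genes. The chemokine gene Ccl2 went from 11.3 to 43.6 RPKM (log2 fold change 1.91), followed by Ccl5 (1.34), Tnf (1.11) and Irf1 (1.11), while Vcam1 (-1.37), Plaur (-0.89) and Sqstm1 (-0.27) were lower. With the combination 15 were higher and 3 lower, against 17.5% and 25.8% of all genes. Ptgs2 (from 5.65 to 40.5 RPKM), Ccl5 (1.97), Ccl2 (1.91) and Tnf (1.51) were higher and Vcam1 (-1.58), Plaur (-1.14) and Sqstm1 (-0.35) lower. Of 17 immediate early and stress genes, 2 were higher with anti-PD-1, Egr2 (0.85) and Atf3 (0.83), near the share of 10.8% over all genes. With the combination 7 of these were higher and 1 lower. They were led by the heat shock genes Hspa1b (3.52) and Hspa1a (3.37), then Egr2 (1.72), Atf3 (1.48) and Fosb (1.24), with Ier2 lower (-0.44). With 7aaRGD alone, Ccl2 was the gene of these lists that passed (1.25, adjusted p = 0.0342). That call ended with a replicate block, with only both groups in the fit, and without any 1 vehicle sample or 7aaRGD replicate 1 or 4, where 0 genes of the table passed (63 in the reported fit).

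In the combination against 7aaRGD, 13% of all genes were higher and 23.5% lower. Of 23 upstream genes, 7 were higher and 4 lower, among them Cd40 (1.00), Tlr2 (0.74), Ikbke (0.60), Tlr4 (0.53) and, lower, Tab1 (-0.61), Irak1 (-0.39), Ltbr (-0.38) and Tab2 (-0.29). Of 13 other inhibitors, 7 were higher and 2 lower, among them Traf1 (1.45), Tnip1 (0.87), Irak3 (0.79), Nfkbid (0.78), Otulin (-0.58) and Tollip (-0.29). Of 26 targets, 14 were higher and 2 lower, with Ccl5 (2.38), Ptgs2 (2.00), Il1b (1.60), Irf1 (1.35), Vcam1 (-1.46) and Sqstm1 (-0.28). Of 17 immediate early and stress genes, 6 were higher, with Hspa1b (2.86), Hspa1a (2.78), Egr2 (1.52), Fosb (1.46) and Atf3 (1.26). None of the lists' genes passed between the combination and anti-PD-1, where the smallest p-values were those of Irak1 (-0.26), Tab1 (-0.43), Zfp36 (0.39), Irak3 (0.28), Ptgs2 (1.63), Il1b (1.04), Hspa1a (2.11) and Fos (0.73). With another test, NOISeq, the paper reports Ptgs2, Il1b and Ccrl2 of the target list as significantly higher in the combination than with anti-PD-1. With 7aaRGD alone, the smallest p-values in the 3 lists without a call were those of Tab2 (0.19), Tbk1 (0.13), Cyld (0.13), Nfkbib (-0.15), Junb (-0.30) and Klf6 (0.23).

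**Figure D4:**
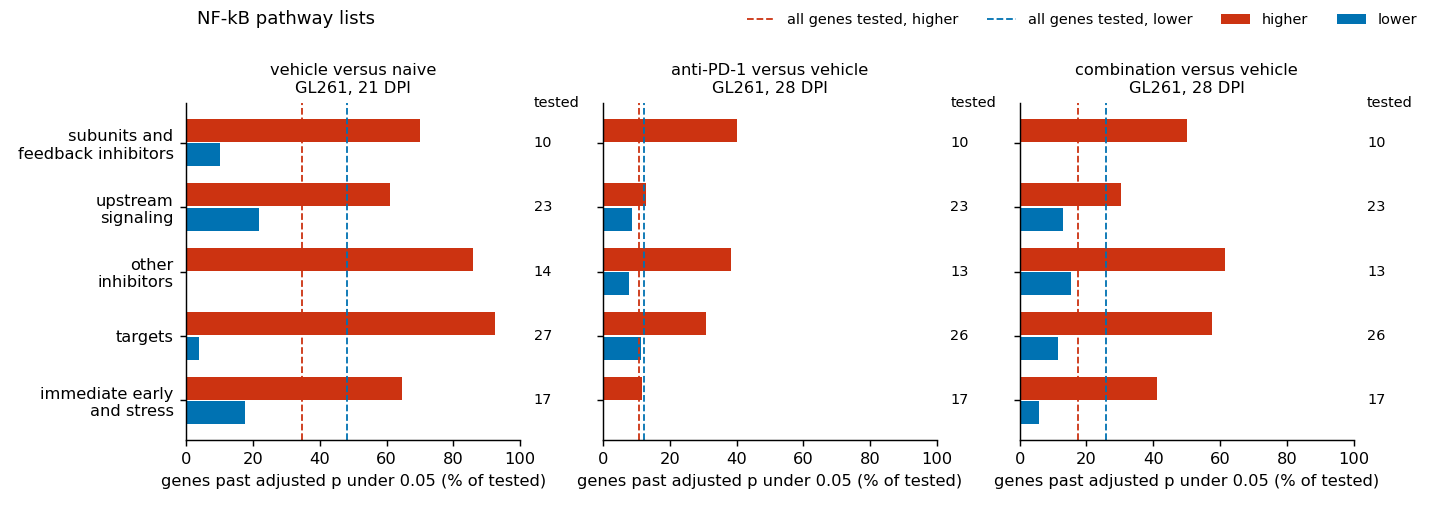
Share of genes past an adjusted p-value of 0.05 (percent of the genes tested in each list, with that number at the right) that were higher (red) or lower (blue) in 3 comparisons; dashed lines are the shares over all genes tested. For the 10 subunits and feedback inhibitors, 7, 4 and 5 genes were higher, above the background lines of 34.6%, 10.8% and 17.5%.

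Markers of other cells also moved at 28 DPI. Over all genes, 10.8% were higher and 12.2% lower with anti-PD-1, and 17.5% and 25.8% with the combination. With anti-PD-1, 5 of 8 monocyte and macrophage markers (Ly6c2, Ccr2, Plac8, Vim and Ms4a4c), 3 of 3 tested dendritic cell markers (Cd209a, Ccr7 and Fscn1), 2 of 2 tested endothelial markers (Pecam1 and Flt1) and 1 of 8 microglia markers (Cx3cr1) were higher, 3 of 5 oligodendrocyte lineage markers (Olig1, Olig2 and Sox10) were lower, and 0 of 5 NK cell markers passed. With the combination the same markers of the first 3 lists were higher and the same 3 of the oligodendrocyte lineage lower, with 5 of 8 microglia markers (P2ry12, Sall1, Siglech, Gpr34 and Cx3cr1) and 4 of 5 NK cell markers (Ncr1, Gzma, Gzmb and Prf1) higher. With 7aaRGD alone Cx3cr1 was the 1 marker that passed, a call that ended under the same alternatives as that of Ccl2. Summed monocyte and macrophage markers were at 348 to 617 RPKM with vehicle, 398 to 1140 with 7aaRGD, 838 to 1288 with anti-PD-1 and 726 to 1024 with the combination. Summed dendritic cell markers were at 10.8 to 22, 15.2 to 33.5, 25.1 to 45.4 and 53.8 to 62.2 RPKM. Of these 7 markers, 6 had a mean under 1 RPKM with vehicle and with 7aaRGD, 3 with anti-PD-1 and 2 with the combination. Summed NK cell markers were at 2.18 to 11, 1.81 to 10.2, 2.59 to 68 and 25 to 79.1 RPKM. Of the neutrophil markers 1 of 8, Csf3r, was higher with anti-PD-1 and with the combination, and Retnlg was lower with the combination, the 1 B cell marker tested did not pass, and no T cell marker reached the filter. No marker of these lists was listed at 0, and their part in the results was not tested.

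In U87-MG gliomas of nude mice, the peptides were compared with vehicle at 21 DPI. None of the 10 genes passed the threshold with 7aaRGD (limma; 0 of 9665 genes passed), with 7aaRAE (0.0103% of genes, 1 gene) or between the peptides (0 of 9665 genes). At an unadjusted p under 0.05 there were 1, 5 and 2 of the 10, against 3.77%, 7.72% and 3.38% of all genes. Both peptides share the 3 vehicle samples. With another test, NOISeq, the paper lists Nfkbia and Nfkbiz among the genes upregulated by 7aaRGD in these gliomas. Neither passed here with limma, and both also lay above vehicle with the control peptide 7aaRAE.

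Nfkbiz was the gene with the largest difference. It was at 27.6, 18.3 and 24 RPKM with vehicle, 40.4, 32.5 and 49.7 with 7aaRGD and 28.4, 48 and 49.7 with 7aaRAE. All peptide samples lay above all vehicle samples (log2 fold change 0.79, standard error 0.24, adjusted p = 0.941 for 7aaRGD, and 0.80, 0.24 and 0.481 for 7aaRAE), and the peptides overlapped (95% interval of the difference -0.56 to 0.52). Nfkbia was at 132, 116 and 119.7 RPKM with vehicle, 136, 136 and 169 with 7aaRGD and 150.2, 192 and 226 with 7aaRAE, again with both peptides above vehicle (0.26, adjusted p = 0.941, and 0.61, adjusted p = 0.333).

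With 7aaRAE, 4 other genes lay below vehicle in every sample without passing. Relb was at 11.1, 12.2 and 10.3 RPKM with vehicle and 9.15, 6.33 and 8.25 with 7aaRAE (log2 fold change -0.46, standard error 0.14, adjusted p = 0.481). Nfkbie was at 13.6, 17.5 and 14.4 and 13.1, 9.52 and 9.13 RPKM (log2 fold change -0.49, standard error 0.17, adjusted p = 0.531). Nfkb2 was at 18, 16.7 and 17 and 14.6, 13.8 and 13.5 RPKM (log2 fold change -0.28, standard error 0.11, adjusted p = 0.583), and Nfkb1 at 20.5, 20.5 and 20.9 and 18, 16.5 and 18.2 (log2 fold change -0.22, standard error 0.10, adjusted p = 0.643). In all, 6 of the 10 genes did not overlap between 7aaRAE and vehicle, against 16.5% of all genes, and 2 of 10 did not between 7aaRGD and vehicle, against 10.8%.

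With 7aaRGD, Relb was at 9.62, 8.26 and 11.1, Nfkbie at 13.1, 10.6 and 16, Nfkb2 at 15.1, 16.2 and 20.9 and Nfkb1 at 20.5, 16.9 and 22.5 RPKM, overlapping with vehicle. Between the peptides, Nfkb2 (0.29, 95% interval 0.03 to 0.54) and Nfkbia (-0.35, -0.70 to -0.01) had an unadjusted p under 0.05, Nfkb2 as the 1 gene without overlap (3.46% of all genes were higher without overlap), and over the 10 genes the intervals lay between -0.77 and 0.69 on the log2 scale. Tnfaip3 was at 18.2 ± 4.33 (SD, n = 3) RPKM with vehicle, 19.4 ± 4.60 (SD, n = 3) with 7aaRGD and 24.2 ± 3.33 (SD, n = 3) with 7aaRAE, with overlapping samples. Rel, Rela and Bcl3 were close in the 3 groups, with log2 fold changes from -0.12 to 0.04 against vehicle and overlapping samples.

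**Figure D5:**
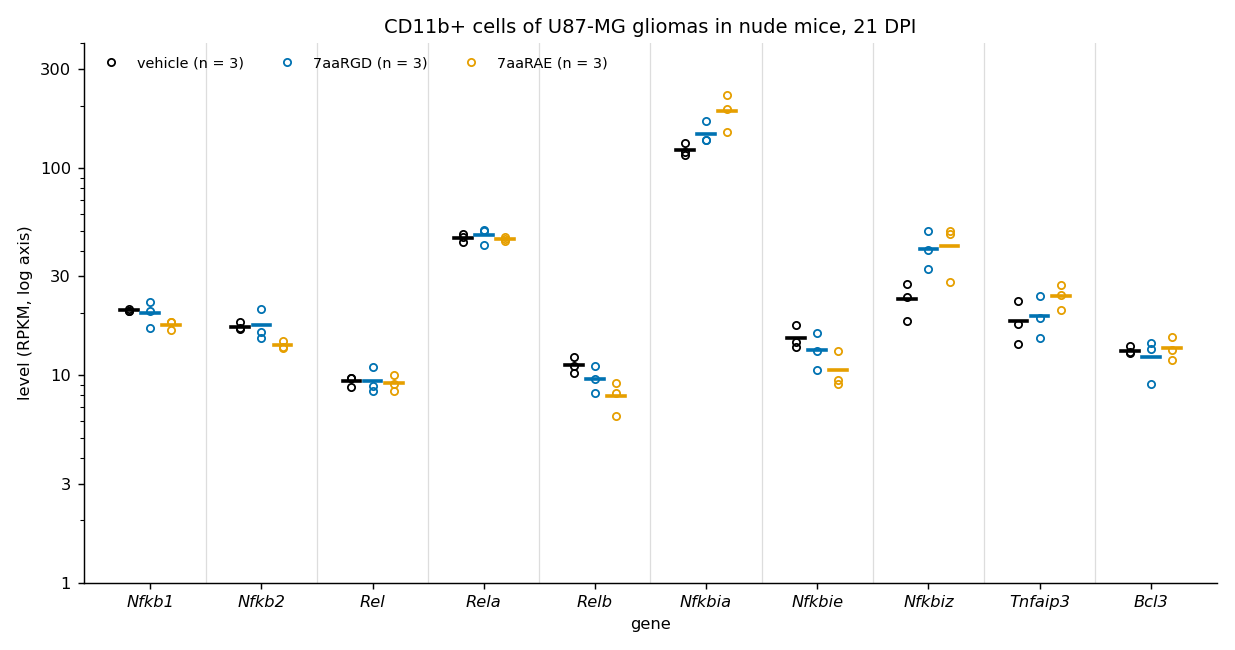
Level of each gene in RPKM (log axis) in CD11b+ cells of U87-MG gliomas (nude hosts, 21 DPI); each circle is a sample of 2 pooled animals and bars are means of 3 samples for vehicle, 7aaRGD and 7aaRAE. Peptide samples lie above vehicle for Nfkbiz and Nfkbia, and 7aaRAE samples lie below vehicle for Nfkb1, Nfkb2, Relb and Nfkbie; none of these differences passed the threshold.

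No gene of the pathway lists passed in U87-MG gliomas. The immediate early and stress genes had log2 fold changes over 0 in 17 of 17 with 7aaRGD and in 16 of 17 with 7aaRAE, where 49.2% and 49.1% of all genes did, with a median of 0.39 in each. The smallest p-values of that list were those of Egr2 (0.91) and Egr1 (0.78) with 7aaRGD and of Klf4 (1.36) and Ier2 (0.72) with 7aaRAE. Summed levels of the list were at 2112 to 2969 RPKM with vehicle, 2938 to 4359 with 7aaRGD and 2735 to 3807 with 7aaRAE, and their part in the values of Nfkbiz and Nfkbia was not tested.

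Among targets the smallest p-values were those of Ccl4 (0.40) and Ier3 (0.61) with 7aaRGD and of Ier3 (1.07) and Ccl4 (0.45) with 7aaRAE. Upstream, they were Traf6 (0.18) and Il1rap (0.17) with 7aaRGD and Traf6 (0.20) and Traf2 (-0.19) with 7aaRAE, and among other inhibitors Tnip2 (0.32) and Zfp36 (0.29), and Tnip2 (0.37) and Cyld (-0.15). Between the peptides they were Irak4 (0.16), Map3k7 (-0.11), Tnip1 (0.19), Nfkbid (0.40), Il1b (0.79), Tnfaip2 (0.54), Egr2 (0.52) and Dusp1 (-0.64). Summed NK cell markers were at 7.67 to 21.3 RPKM with vehicle, 1.46 to 7.17 with 7aaRGD and 0.269 to 1.96 with 7aaRAE, summed microglia markers at 8369 to 10308, 6498 to 10563 and 7215 to 8806, and summed monocyte and macrophage markers at 337 to 463, 401 to 708 and 357 to 671. No marker of any cell type passed in U87-MG gliomas, the T cell markers Cd3g and Cd8a were listed at 0 in all 3 groups and the NK cell marker Klre1 with 7aaRAE, and the part of these markers in the values of the 10 genes was not tested.

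Set side by side without a test, the vehicle groups of the 3 experiments differed in the order of the genes. The experiments also differ in day, tumor line, host and animals per sample. Mean microglia marker sums were 1678 RPKM at 21 DPI, 1734 at 28 DPI and 9340 in U87-MG gliomas. Monocyte and macrophage marker sums were 2396, 502 and 398 RPKM, and their part in these levels was not tested. Bcl3 was at 50.4 ± 4.06 RPKM in GL261 gliomas at 21 DPI, 20.3 ± 5.09 at 28 DPI and 13.2 ± 0.55 in U87-MG gliomas. Nfkb2 was at 46.6 ± 3.48, 17 ± 1.09 and 17.2 ± 0.7 RPKM, and Relb at 28.7 ± 3.07, 10.5 ± 0.997 and 11.2 ± 0.963. Nfkbiz was highest in U87-MG gliomas, at 23.3 ± 4.66 RPKM against 11.8 ± 0.683 and 9.46 ± 2.47 (SD, n = 3, 4 and 3 for 21 DPI, 28 DPI and U87-MG).

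Within the tumor-bearing samples of each table (9 at 21 DPI, 14 at 28 DPI and 9 of U87-MG), Nfkb2 and Nfkbie were the pair with the most similar patterns by the mean over the tables, with Pearson r of log2(RPKM + 1) of 0.94, 0.97 and 0.73. Nfkb1 and Nfkb2 followed (0.75, 0.96 and 0.76), then Nfkb1 with Nfkbie (0.65, 0.93 and 0.82), Relb with Nfkbie (0.60, 0.89 and 0.90) and Nfkb2 with Relb (0.64, 0.96 and 0.72). Nfkbia with Nfkbie had 0.41, 0.04 and -0.71, and Nfkbia with Tnfaip3 had 0.70, 0.44 and 0.83. The correlations describe samples that share a table's normalization and include the group differences, and no p-value is given.

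Over 8911 protein-coding genes at a mean of at least 1 RPKM in each table, the genes whose pattern was most like a member's by the mean of the 3 within-table r were, for Nfkb1, Ddx17 (0.89), Zfp710 (0.88) and Pde4dip (0.87), for Nfkb2, Nadk (0.88), Crybg1 (0.87) and Uhrf2 (0.87), and for Relb, Plac8 (0.93), Psmb9 (0.87) and Gfpt1 (0.83). For Nfkbie they were Nod2 (0.94), Gfpt1 (0.89) and Sema4d (0.86), so that Gfpt1 was near both Relb and Nfkbie. Plac8, nearest to Relb, belongs to the list of monocyte markers. For Rel they were Skil (0.82), Traf3 (0.73) and Epc1 (0.72), for Rela, Dgkd (0.74), Jarid2 (0.74) and Fbrs (0.69), and for Bcl3, Rab20 (0.76), Rhbdf2 (0.75) and Batf2 (0.73). For Nfkbiz they were Ppp1r15a (0.87), Aff1 (0.85) and Tnf (0.82), for Nfkbia, Map3k8 (0.72), Mafk (0.66) and H3f3b (0.65), and for Tnfaip3, Ccrl2 (0.76), Nfil3 (0.74) and Nuak2 (0.65).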

How the data were processed

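CD11b+ cells were profiled by RNA-seq in 3 experiments, with 35 of the 40 labelled samples in 3 tables; the other 5 (a naïve nude group, and 1 sample each of anti-PD-1 and combination) were not analysed here. Per the study's methods, the authors used Trimmomatic for trimming, STAR for alignment to the mouse genome mm10, Picard for duplicates and HTSeq 0.11.1 for counting. The deposited values are RPKM plus a constant of 2, which was read from the values and subtracted, with negative results set to 0; 5.99% to 6.81% of values per table lay under the constant, so that the authors altered values after scaling by a step not given in the sources used here, and residual degrees of freedom may be overstated.

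The 10 genes, the pathway lists and the marker lists were chosen with earlier results of these data known. Genes were taken by symbol, of which 98.8% matched the mm10 annotation. Genes that code for proteins and averaged 1 RPKM or more over the samples fitted were tested with limma 3.58.1 (R 4.3.3, two-sided, with a mean-variance trend) on log2(RPKM + 1), where the pseudocount understates changes of low genes, in 13 comparisons fitted on all tumor-bearing groups of a table together, and on the 6 vehicle and naïve samples alone for vehicle against naïve; adjusted p-values follow Benjamini and Hochberg over all genes tested. NOISeq, the test of the study, was not used. Of each pathway list, at most the 5 genes past the threshold with the largest fold changes are named, or, where none passed, the 2 with the smallest p-values, and for each member the 3 genes with the most similar pattern. All samples are separate animals or pools of animals. Same-numbered samples mostly did not deviate in the same direction (Pearson r over 0.1 in 1 of 9 pairs at 21 DPI and 3 of 19 at 28 DPI). The r of the pairs ran from -0.77 to 0.12 at 21 DPI and from -0.50 to 0.37 at 28 DPI, so that some deviated in opposite directions. Alternatives were other pseudocounts, filters, scalings, gene sets and samples, a replicate block, 1 residual degree of freedom less and each sample left out.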

Additional observations from a re-analysis of the deposited data

Results flagged for a closer look

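In the 7aaRGD group at 28 DPI, Nfkbie was at 15.8, 22.6, 16.8 and 16.6 RPKM, and replicate 2 stood apart: its gap to the nearest sample took up 0.859 of the range of the group. Each of the 10 genes was examined in both groups of 4 samples, 20 sets of values in all, of which chance sets apart about 1 in 20. Without replicate 2 the 7aaRGD group still had no call against vehicle for Nfkbie.

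With 7aaRAE against vehicle, 4 genes had samples that lay above vehicle without overlap in GL261 gliomas at 21 DPI and below vehicle without overlap in U87-MG gliomas. The log2 fold changes were 0.15 and -0.22 for Nfkb1, 0.23 and -0.28 for Nfkb2, 0.13 and -0.46 for Relb, and 0.23 and -0.49 for Nfkbie. None of the 8 values passed the threshold (limma, smallest adjusted p = 0.481). The difference between the experiments was not tested, since the tables were normalized separately and differ in tumor line and host.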

How the results depend on the processing

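The number of the 10 genes past the threshold stayed within 1.5 times in all 13 comparisons and under all alternatives, except with anti-PD-1 against vehicle at 28 DPI, where it ranged from 2 to 4 when each sample was left out in turn and was 2 without anti-PD-1 replicate 1 (Relb and Nfkbie lost, adjusted p = 0.0516 and 0.0751 by limma). Nfkbie was also lost without anti-PD-1 replicate 2 (adjusted p = 0.0547), with 1 fewer sample in the fit. For the combination against vehicle the counts ranged from 4 to 6: Nfkbiz was lost without combination replicate 1 or 3 (adjusted p = 0.0705 and 0.063), and Bcl3 was gained without vehicle replicate 1 (adjusted p = 0.0282), with median-of-ratios scaling (0.0493) and with only the groups compared in the fit (0.0313). Bcl3 also passed in the combination against 7aaRGD with only these groups fitted (0.00706). The causes were not tested. No call changed its direction.

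With a replicate block, 8 of the 10 genes passed between vehicle and naïve cells, 4 with anti-PD-1, 5 with the combination, 4 in the combination against 7aaRGD and 0 in the other comparisons of the GL261 tables, as without it, and the block changed no call of the 10. For the U87-MG table alone, no paired analysis was possible because its columns carry no replicate number. Of 93 fold changes that neither passed nor had an unadjusted p under 0.05, 48 changed sign when a sample was left out and 6 under another setting.

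The counts over all genes moved more: across the alternatives they ranged from 5287 to 9916 (8060) for vehicle against naïve, from 1355 to 2381 (2245) for anti-PD-1, from 2942 to 4843 (4215) for the combination against vehicle, from 2549 to 3820 (3561) against 7aaRGD and from 0 to 26 (4) against anti-PD-1, with the count of the reported fit in parentheses. For 7aaRGD against vehicle they ranged from 0 to 125 (14) at 21 DPI and from 0 to 93 (63) at 28 DPI, for 7aaRAE in U87-MG gliomas from 0 to 32 (1), and in the other 5 comparisons they stayed at 7 or fewer (0). Depth is unknown, groups hold 3 or 4 samples, and levels near 1 RPKM, such as Bcl3 in naïve cells, are the least precise.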
